A study of Rattus norvegicus with 18 samples.

Results

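STAT transcription factors and SOCS inhibitors were followed through the response of rat glia to amyloid fibrils. The members were 9 genes chosen by symbol, the 6 STAT factors Stat2, Stat3, Stat4, Stat5a, Stat5b and Stat6 and the 3 inhibitors Socs1, Socs2 and Socs3, out of 16704 symbols listed in the count tables of both cell types. RNA was sequenced from primary astrocytes and from primary microglia of wild-type (WT) Sprague-Dawley rat pups, taken from the cortex on postnatal day 2. Each cell type was left without fibrils (control) or received 25 µM fibrils of the amyloid β-protein ending at residue 42 (Aβ42) or at residue 40 (Aβ40), all for 24 h. There were 3 libraries in each of the 6 groups. The comparisons asked how each fibril changed expression in each cell type, whether the fibrils differed, and whether astrocytes and microglia differed in their response. Nothing in the sources used here says whether the 3 libraries of a group came from separate cultures, so the p-values measure only the spread between these libraries, which may be technical.

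Cytokines and interferons bind paired receptor chains on the cell surface, and Janus kinases (JAKs) attached to those chains phosphorylate STAT proteins, which pair up and enter the nucleus to switch on target genes. SOCS genes are among those targets, and their proteins return to the receptors and kinases and damp the signal, a negative feedback loop. In glia the pathway is best known for interferon responses, for STAT3 in reactive astrocytes and for the tuning of cytokine responses in microglia.

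STAT proteins bind DNA at a palindrome with TTC and GAA as its arms, and the interferon complex that contains STAT2 binds a repeat of GAAA. The 250 bases before the start of 3 members are shown because these genes carry the contrasts described here: Socs1 and Socs3 had the largest rises in microglia, and Stat5a moved in opposite directions in the 2 cell types. Sequences come from the RefSeq table of rat promoters (build GRCr8), which holds 8 of the 9 members; Socs2 had no entry. They are written 5′ to 3′ on the strand of the gene, with motif matches in capitals.
Socs1, chr10:5389324-5389573, plus strand: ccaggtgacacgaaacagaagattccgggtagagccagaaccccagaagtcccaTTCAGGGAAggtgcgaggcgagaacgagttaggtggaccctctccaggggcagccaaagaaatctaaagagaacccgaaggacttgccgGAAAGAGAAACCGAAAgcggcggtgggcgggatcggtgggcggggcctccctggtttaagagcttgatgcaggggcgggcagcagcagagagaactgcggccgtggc
Socs3, chr10:103694769-103695018, minus strand: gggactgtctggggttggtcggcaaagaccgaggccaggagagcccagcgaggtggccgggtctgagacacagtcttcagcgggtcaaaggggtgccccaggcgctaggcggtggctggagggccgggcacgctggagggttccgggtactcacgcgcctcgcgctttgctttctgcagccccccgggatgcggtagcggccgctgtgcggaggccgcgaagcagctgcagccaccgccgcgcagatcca
Stat5a, chr10:86285609-86285858, plus strand: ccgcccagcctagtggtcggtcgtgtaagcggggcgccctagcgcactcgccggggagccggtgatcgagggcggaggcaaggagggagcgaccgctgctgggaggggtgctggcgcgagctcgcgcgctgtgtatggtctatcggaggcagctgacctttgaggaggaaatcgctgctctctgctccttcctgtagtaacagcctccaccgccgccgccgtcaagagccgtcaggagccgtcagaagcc

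A window of 300 bases, from 250 before the start to 50 after it, was searched on both strands for 3 motifs. The first, TTCNNNGAA, was present in 1 of the 8 members, Socs1, where TTCAGGGAA lay from 196 to 188 bases before the start; 8.87% of all 33469 promoters in the table held this motif. The interferon repeat GAAANNGAAA was likewise present in 1 member, Socs1, as the overlapping matches GAAAGAGAAA and GAAACCGAAA between 107 and 92 bases before the start, and 3.92% of all promoters held it. The wider spacing used by STAT6, with 4 bases between TTC and GAA, was in none of the 8 windows and in 7.28% of all promoters. No match says only that these letters are not in that window. In the gene order of the same build Stat5b, Stat5a and Stat3 follow each other on chromosome 10, with no other gene between Stat5b and Stat5a or between Stat5a and Stat3. Stat5a and Stat5b are close copies of each other, and how reads shared by them were divided is not stated, so their separate values are uncertain to that extent.

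Counts on genes ranged from 3674043 to 19013919 a library in astrocytes (5.18-fold) and from 2271834 to 22274367 in microglia (9.80-fold). Values below are counts scaled to a common library size and composition (scaled CPM), with the libraries of a group given in the order of replicates 1, 2 and 3. A floor of 3 counts corresponds to between 0.160 and 0.835 scaled CPM in astrocytes and between 0.130 and 1.38 in microglia; floors and intervals of counts cover counting error only. A gene is called changed where the adjusted p of edgeR's quasi-likelihood test, over all genes tested in that cell type, is under 0.05. For 3 libraries against 3 the smallest two-sided p that exact permutation can give is 0.10, and edgeR instead pools the spread over genes. Fewer cells of a type and less RNA per cell cannot be told apart in such bulk libraries.

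Among the libraries, 2 stood apart from their groups. Microglia Aβ42 replicate 1, with 2613723 counts on genes, had a mean correlation of log expression of 0.964 with the other Aβ42 libraries and 0.983 with the Aβ40 libraries. Astrocyte control replicate 2 had a mean correlation of 0.949 with the other controls, against 0.969 and 0.967 for replicates 1 and 3. Calls of members that change without either library are named beside them. Astrocyte control replicate 2, Aβ42 replicate 3 and Aβ40 replicate 1 had the highest share of reads not assigned to a single gene in their groups (34.2%, 27.4% and 27.6%). The deviations of these 3 libraries from their group means correlated with each other (r = 0.62, 0.57 and 0.62). These 3 libraries were also the lowest of their groups for Stat5a, Stat5b, Socs1 and Socs3, and the part of what they share in the results was not tested.

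The cell type labels were compared with marker lists. Single genes of these lists are named after their values were seen. In astrocyte libraries the 10 astrocyte markers, Gfap the highest on average over the 9 libraries, summed to 10102 to 12649 scaled CPM in control, 7296 to 7478 with Aβ42 and 7986 to 8221 with Aβ40. That list did not move as a whole: Aldh1l1 (29.0 to 48.5 in control, 94.4 to 135 with fibrils), Slc1a2 (4.71 to 6.70 and 13.02 to 16.1) and Aqp4 (1226 to 1876 and 1859 to 2294) were higher with fibrils, Aqp4 in all treated libraries but 1. In microglia libraries the 15 microglial markers summed to between 9759.5 and 11419 in control, between 2982 and 4163 with Aβ42 and between 3645 and 4214 with Aβ40; Itgam went the other way (348 to 395 in control, 642 to 783 with fibrils). Microglial transcripts were also present in the astrocyte controls, where the same list summed to between 539 and 700.2, and lower with Aβ42 (170.1 to 188) and Aβ40 (147 to 161). The microglial receptor Csf1r stood at 113 to 134 in the controls and at 2.57 to 6.04 in the treated astrocyte libraries. The part of the microglial list in the astrocyte results was not tested. Astrocyte markers summed to 1338 to 1514 in microglia controls, 814 to 905 with Aβ42 and 914 to 984 with Aβ40. Most of that difference lay in Glul (1060.2 to 1267.5 in control, 553 to 723 with fibrils); Slc1a3 was lower as well (69.0 to 77.8 and 17.6 to 21.7), and Gja1 was higher (14.5 to 19.6 and 22.8 to 53.3), so the list did not move as a whole.

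Other cell types were checked in the same way. Oligodendrocyte lineage markers summed to 1725 to 2573 in astrocyte controls and to 1272 to 1372 in treated ones, and to 1963 to 2167 in microglia controls, 2180.0 to 2833 with Aβ42 and 2206 to 2666 with Aβ40. Neuronal markers were lower with fibrils in astrocyte libraries (211 to 237 in control, 80.5 to 98.7 with Aβ42 and 93.7 to 109.9 with Aβ40) and stood at 274 to 286, 286 to 348 and 354 to 387 in microglia. Fibroblast markers stood at 127 to 167, 156 to 201 and 178 to 216 in astrocytes. Within that list Pdgfrb was higher with fibrils in astrocytes (42.1 to 65.9 in control and 116 to 153), and Col1a1 was lower (73.5 to 97.7 and 27.7 to 56.2). In microglia the list was higher with fibrils (46.4 to 58.7, 134 to 154 and 119 to 123), mostly through Dcn. Dcn went from at most 0.825 to between 62.0 and 84.8. Pdgfrb was lower in microglia (4.42 to 7.34 and 1.60 to 3.60), and Col1a1 overlapped control with each fibril (40.3 to 49.6 in control, 39.6 to 77.6 with Aβ42 and 41.99 to 50.6 with Aβ40). The endothelial list was lower with fibrils in microglia (161 to 173 in control and 35.0 to 103 with fibrils) through Flt1 (152 to 163 and 28.9 to 78.6), while Cdh5 was higher with Aβ40 (4.64 to 5.34 and 13.6 to 20.7), and the list was at most 8.38 in astrocytes, and its defining gene Cldn5 was at 0 in every library. In the T and NK cell list Cd3e and Cd3g were at 0 in all libraries, Ncr1 in astrocytes and Klrb1c in microglia. The sum of that list in microglia was almost wholly Cd4, at 641 to 863 in controls and 26.6 to 41.6 after treatment.

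**Figure D1:**
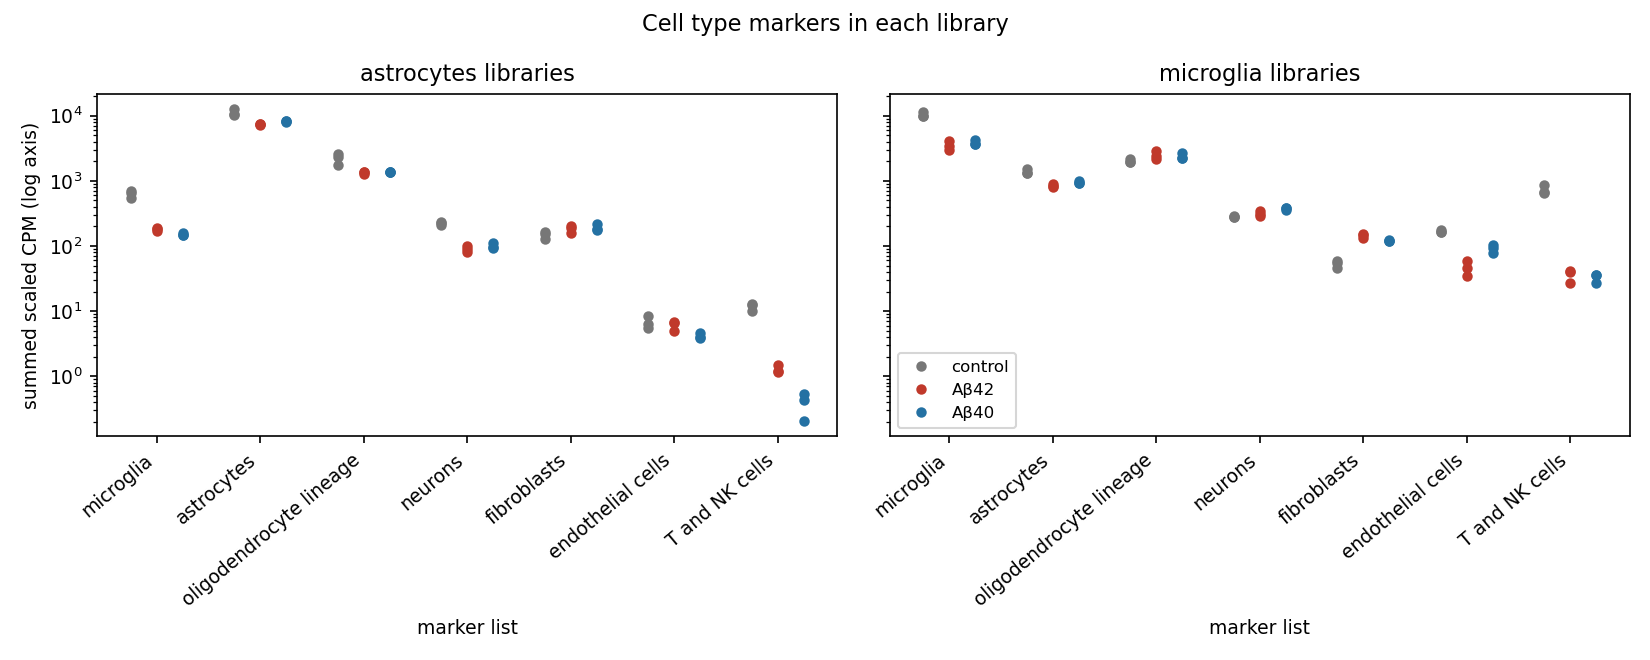
Summed scaled CPM of each marker list (log axis) in every library of astrocytes (left) and microglia (right), coloured by treatment. The microglial list is lower with either fibril in both cell types, falling from between 539 and 700.2 to at most 188 in astrocyte libraries.

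In astrocytes, fibrils raised all 5 STAT genes that could be tested, and 1 of the 3 SOCS genes. Stat2, the STAT of the type I interferon response, rose from 114, 123 and 137 scaled CPM in control to 661, 687 and 643 with Aβ42 and 654, 653 and 684 with Aβ40. All treated libraries lay far above all controls, and the treated groups overlapped. The fold was 5.32 with either fibril (log2 2.41, SE 0.11, adjusted p = 5.88e-08 with Aβ42 and 6.89e-08 with Aβ40). Of the 9 members, 6 were called higher and 0 lower with Aβ42, where 16.5% of all genes tested were higher and 20.4% lower. With Aβ40 it was also 6 higher and 0 lower, beside 14.9% and 18.4% of all genes. The comparisons with Aβ42 and Aβ40 share their controls.

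Stat5a, which relays growth hormone, prolactin and colony-stimulating factor signals, had the other large rise in astrocytes. It stood at 22.0, 17.7 and 22.3 in control, 125, 122 and 97.2 with Aβ42 and 90.9, 103 and 98.1 with Aβ40. No treated library came near the controls, and the treated groups overlapped. The fold was 5.53 with Aβ42 (log2 2.47, SE 0.15, adjusted p = 4.98e-07) and 4.69 with Aβ40 (log2 2.23, SE 0.15, adjusted p = 1.15e-06). Its close copy Stat5b rose less, from 29.2, 26.1 and 36.8 to 62.2, 66.8 and 59.1 with Aβ42 and 54.1, 59.9 and 61.0 with Aβ40. Here too the treated libraries were all above the controls, by 2.02-fold (log2 1.01, SE 0.15, adjusted p = 0.000317) and 1.88-fold (log2 0.91, SE 0.15, adjusted p = 0.000745).

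Stat3, the mediator of interleukin-6 family signals and a known regulator of reactive astrocytes, rose about 2-fold. It went from 536, 414 and 532 in control to 1017, 1070.4 and 990.5 with Aβ42 and 1011, 956 and 996 with Aβ40. Every treated library was well above every control, with log2 fold changes of 1.05 (SE 0.12, adjusted p = 5.42e-05) and 0.9995 (SE 0.12, adjusted p = 8.87e-05). Stat6, the STAT of interleukin-4 and interleukin-13, was low in astrocytes and rose from 12.2, 9.10 and 14.8 to 37.6, 35.2 and 30.3 with Aβ42 and 32.1, 35.7 and 31.8 with Aβ40. The groups did not overlap, and the fold was 2.77 with Aβ42 (log2 1.47, SE 0.18, adjusted p = 8.75e-05) and 2.68 with Aβ40 (log2 1.42, SE 0.18, adjusted p = 0.000122). Each of these 5 STAT calls in astrocytes was also made in all 16 alternative fits run for it.

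Stat4, which serves interleukin-12 signalling in lymphocytes, was not measurable. It had 1 count in astrocyte control replicate 3, 1 in astrocyte Aβ40 replicate 2 and 0 in the other 16 libraries, under the floor in every group, and no fold is given. The other 8 members passed the filter on low counts in both cell types.

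The SOCS genes were less uniform in astrocytes. Socs1, whose protein blocks the JAKs of interferon receptors, stood at 3.34, 0.239 and 3.80 in control, 15.9, 12.7 and 5.52 with Aβ42 and 5.92, 14.6 and 14.5 with Aβ40. The treated libraries were all above the controls but spread widely, and the lowest control was the library that stood apart, with 1 count. Socs1 was higher by 4.11-fold with Aβ42 (log2 2.04, SE 0.58, adjusted p = 0.0171) and 4.22-fold with Aβ40 (log2 2.08, SE 0.57, adjusted p = 0.0164). Without astrocytes control replicate 2, the library that stood apart, the log2 fold change of Socs1 was 1.67 with Aβ42 and 1.71 with Aβ40, the lowest of its alternatives, and both were called. Without control replicate 3 the Aβ42 value was 2.77 (adjusted p = 0.0292) and the Aβ40 value 2.81 (adjusted p = 0.0284; 0.00858 to 0.0497 over its alternatives). Without Aβ42 replicate 1 the Aβ42 value was 1.73 with an adjusted p of 0.0585, the highest of its 15 alternatives, which began at 0.00780.

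Socs3, the feedback inhibitor of interleukin-6 family receptors, was not called in astrocytes. Its controls stood at 38.1, 11.2 and 65.2, against 90.8, 83.9 and 61.4 with Aβ42 and 57.8, 74.5 and 67.5 with Aβ40. The highest control lay among the treated libraries. The log2 fold change was 0.9997 with Aβ42 (SE 0.43, adjusted p = 0.0942) and 0.76 with Aβ40 (SE 0.43, adjusted p = 0.205). It became a call without control replicate 3 (1.69, adjusted p = 0.00991 with Aβ42; 1.45, adjusted p = 0.0208 with Aβ40) and, with Aβ42, by the DESeq2 Wald test (1.04, adjusted p = 0.0426). Without control replicate 2, which stood apart, the Aβ42 value was 0.57 and passed (adjusted p = 0.0406), and the Aβ40 value was 0.33 (adjusted p = 0.227). Over the 16 alternatives the adjusted p ran from 0.00991 to 0.201 with Aβ42 and from 0.0208 to 0.355 with Aβ40.

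Socs2, the inhibitor of growth hormone signalling, changed least. Its astrocyte levels were 6.96, 10.1 and 8.86 in control, 10.3, 11.1 and 10.4 with Aβ42 and 11.7, 10.2 and 13.1 with Aβ40. All treated libraries were above the controls, but by little. The log2 fold changes were 0.29 (SE 0.18, adjusted p = 0.238) and 0.43 (SE 0.17, adjusted p = 0.0864), neither called. Without control replicate 2 the Aβ40 value was 0.50 with an adjusted p of 0.0362, the lowest of 16 alternatives, which reached 0.272.

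**Figure D2:**
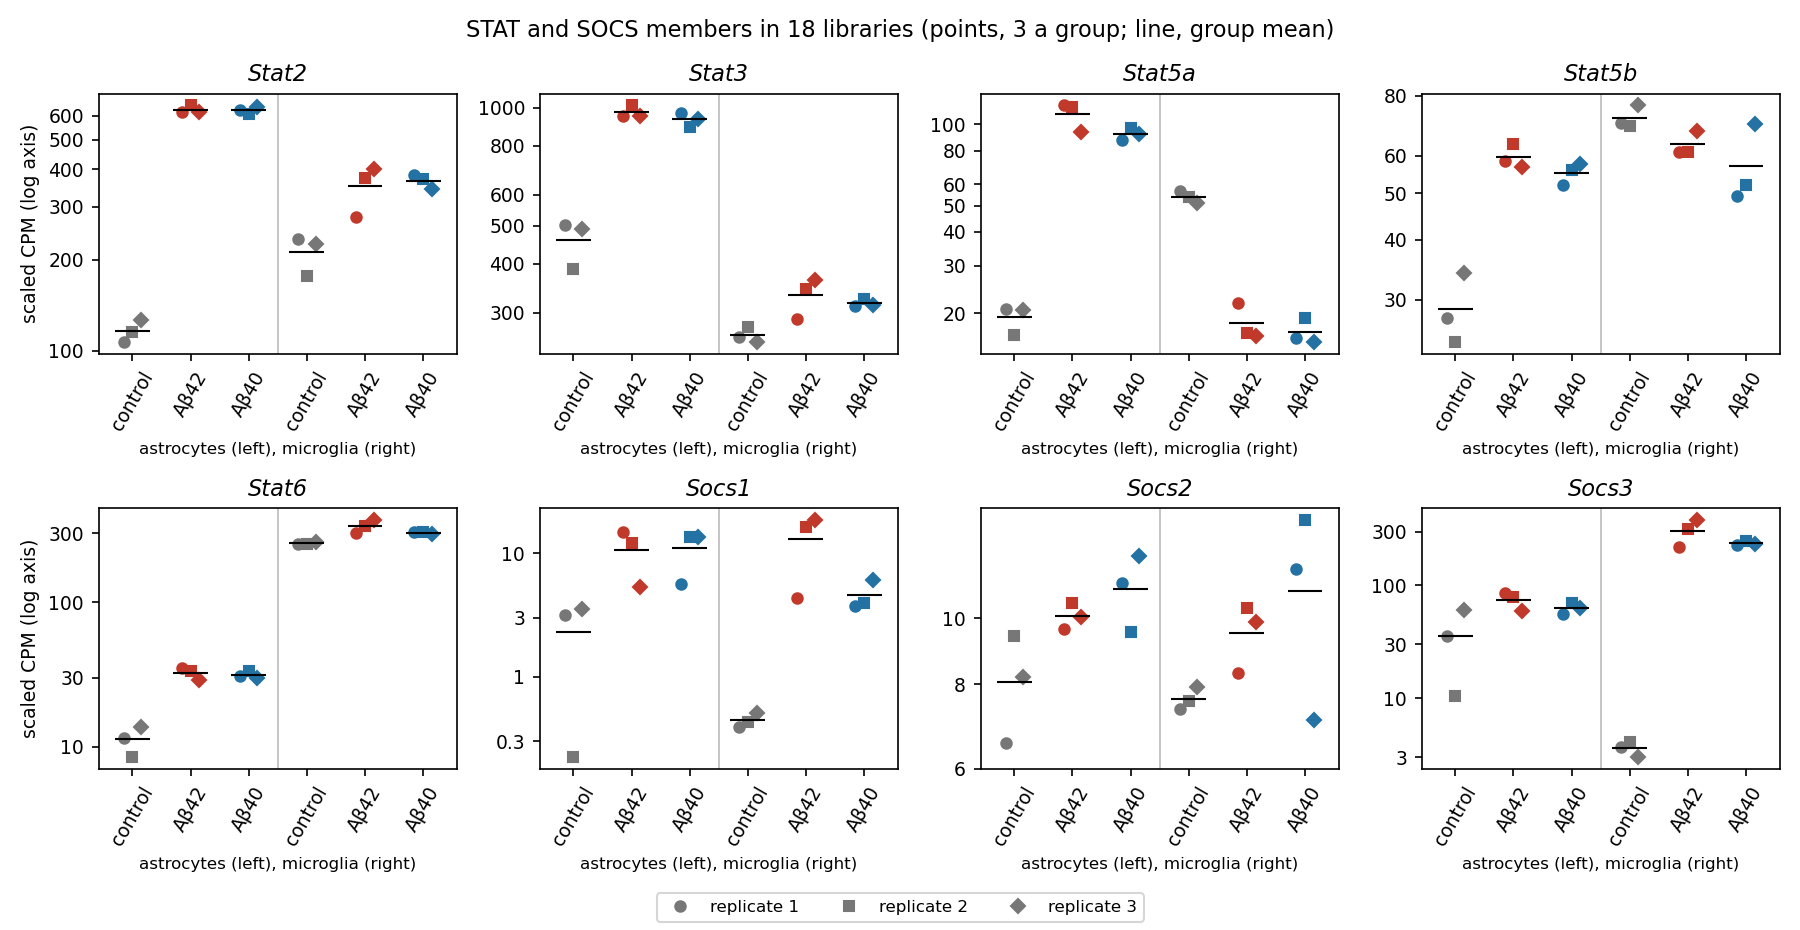
Scaled CPM (log axis) of the 8 measurable members in each library, astrocytes left of the line and microglia right, scaled together over all 18 libraries, so that values differ slightly from those within a cell type; horizontal lines are group means of 3 libraries. Stat2, Stat3, Stat5a and Stat6 libraries with fibrils lie above all controls in astrocytes, and Socs3 in microglia goes from about 3.60 to 304 with Aβ42.

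In microglia the largest changes were the rises of Socs3 and Socs1. Socs3 went from 3.30, 3.67 and 2.75 scaled CPM in control to 202, 277 and 332 with Aβ42 and 206, 221 and 211 with Aβ40. Every treated library was far above every control, and the treated groups overlapped. Socs3 rose 84.1-fold with Aβ42 (log2 6.39, SE 0.22, adjusted p = 7.00e-10) and 65.8-fold with Aβ40 (log2 6.04, SE 0.22, adjusted p = 1.30e-09), in all 16 alternatives. Of the 9 members, 5 were called higher and 1 lower with Aβ42, where 27.1% of all genes tested were higher and 26.6% lower. With Aβ40 it was 5 higher and 1 lower, beside 19.6% and 21.4% of all genes. However, 3 were higher without control replicate 1 or 3, Aβ42 replicate 2, or Aβ40 replicate 1 or 2. That count of 3 was also given by library totals, no filter and the replicate block. Through a call gained by Stat5b, 2 were lower without Aβ42 replicate 1 or Aβ40 replicate 3. The same 2 were lower with library totals, the replicate block or the compared groups alone.

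Socs1 was at or under the floor in control microglia, with 3, 2 and 3 counts (0.353, 0.386 and 0.458 scaled CPM). It stood at 3.998, 14.6 and 16.3 with Aβ42 and 3.38, 3.58 and 5.52 with Aβ40. Every treated library was above the controls, and Aβ42 replicate 1, the library that stood apart, was within the range of the Aβ40 group. The ratio of summed counts was 37.0 with Aβ42 (exact 95% counting interval 18.7 to 86.2) and 9.84 with Aβ40 (4.56 to 24.3). Both rises were called (adjusted p = 5.41e-06 and 0.00275) and were called in all 15 alternatives that keep the gene. With control counts this low, Socs1 passed the filter in microglia only through its treated libraries. These calls, and the counts of members called higher that include them, therefore depend in part on the filter.

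Socs2 gave 6.597, 6.76 and 7.17 in control microglia, 7.60, 9.14 and 8.67 with Aβ42 and 10.6, 12.5 and 6.44 with Aβ40. Aβ40 replicate 3 fell below the controls. The Aβ40 value was just called (log2 0.60, SE 0.22, adjusted p = 0.0448), but in 5 of 16 alternatives only, with adjusted p from 0.00945 to 0.265; among the 11 that lost it were fits without Aβ40 replicate 2 (0.39, adjusted p = 0.265), Aβ40 replicate 1 (0.57, adjusted p = 0.126), Aβ42 replicate 2 (0.59, adjusted p = 0.0641), Aβ42 replicate 3 (0.59, adjusted p = 0.0675) and control replicates 1, 2 and 3 (0.58, 0.61 and 0.65; adjusted p = 0.113, 0.0753 and 0.0731). With Aβ42 the log2 fold change was 0.35 (SE 0.19, adjusted p = 0.149).

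Stat5a fell in microglia, the opposite of its course in astrocytes. It stood at 51.1, 48.3 and 46.4 in control, 19.99, 14.9 and 14.4 with Aβ42 and 14.5, 17.2 and 14.2 with Aβ40. All treated libraries were below all controls. The log2 fold change was -1.64 with Aβ42 (SE 0.14, adjusted p = 1.26e-06), 3.11-fold lower, and -1.65 with Aβ40 (SE 0.15, adjusted p = 3.05e-06), 3.14-fold lower. Stat5b stood at 63.1, 62.0 and 69.1 in control, 56.0, 53.8 and 59.2 with Aβ42 and 44.4, 46.5 and 63.4 with Aβ40. Neither difference was called (log2 -0.20, SE 0.13, adjusted p = 0.215, and -0.35, SE 0.14, adjusted p = 0.0576). The Aβ40 value of Stat5b passed in 5 of 16 alternatives, among them those without Aβ40 replicate 3 (-0.51, adjusted p = 0.00762) and without Aβ42 replicate 1 (-0.38, adjusted p = 0.0120), with adjusted p up to 0.244.

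Stat2 rose modestly in microglia, from 211, 159 and 205 to 254, 330.0 and 351 with Aβ42 and 342, 331 and 312 with Aβ40. The groups did not overlap with control, and the folds were 1.63 (log2 0.71, SE 0.14, adjusted p = 0.00120) and 1.72 (log2 0.78, SE 0.14, adjusted p = 0.000799), called in all 16 alternatives each. Stat3 rose from 234, 248 and 229 to 266, 304 and 319 with Aβ42 and 281, 291 and 286 with Aβ40. These were small differences of 1.26-fold (log2 0.33, SE 0.10, adjusted p = 0.0140) and 1.21-fold (log2 0.27, SE 0.10, adjusted p = 0.0439). The Aβ42 call of Stat3 was lost without Aβ42 replicate 3 (0.28, adjusted p = 0.0636) and ran down to 0.000244 over its alternatives. The Aβ40 call was made in 7 of 16 alternatives, with adjusted p from 0.00441 to 0.130; it was lost without control replicates 1 (0.0979) or 3 (0.104), Aβ42 replicate 2 (0.0545) or any Aβ40 replicate (0.0915, 0.130 and 0.0933), and with library totals, no filter or the replicate number as a block.

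Stat6 was abundant in microglia, at 228, 227 and 236 in control, 275, 298 and 325 with Aβ42 and 274, 275 and 271 with Aβ40. Treated libraries were all higher. The rise was called with Aβ42 (1.30-fold, log2 0.38, SE 0.09, adjusted p = 0.00488) and not with Aβ40 (1.19-fold, log2 0.25, SE 0.09, adjusted p = 0.0552). Without Aβ42 replicate 1 the Aβ40 value of Stat6 passed (0.24, adjusted p = 0.00835), as it did in 4 of 16 alternatives, with adjusted p from 0.00725 to 0.143.

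**Figure D3:**
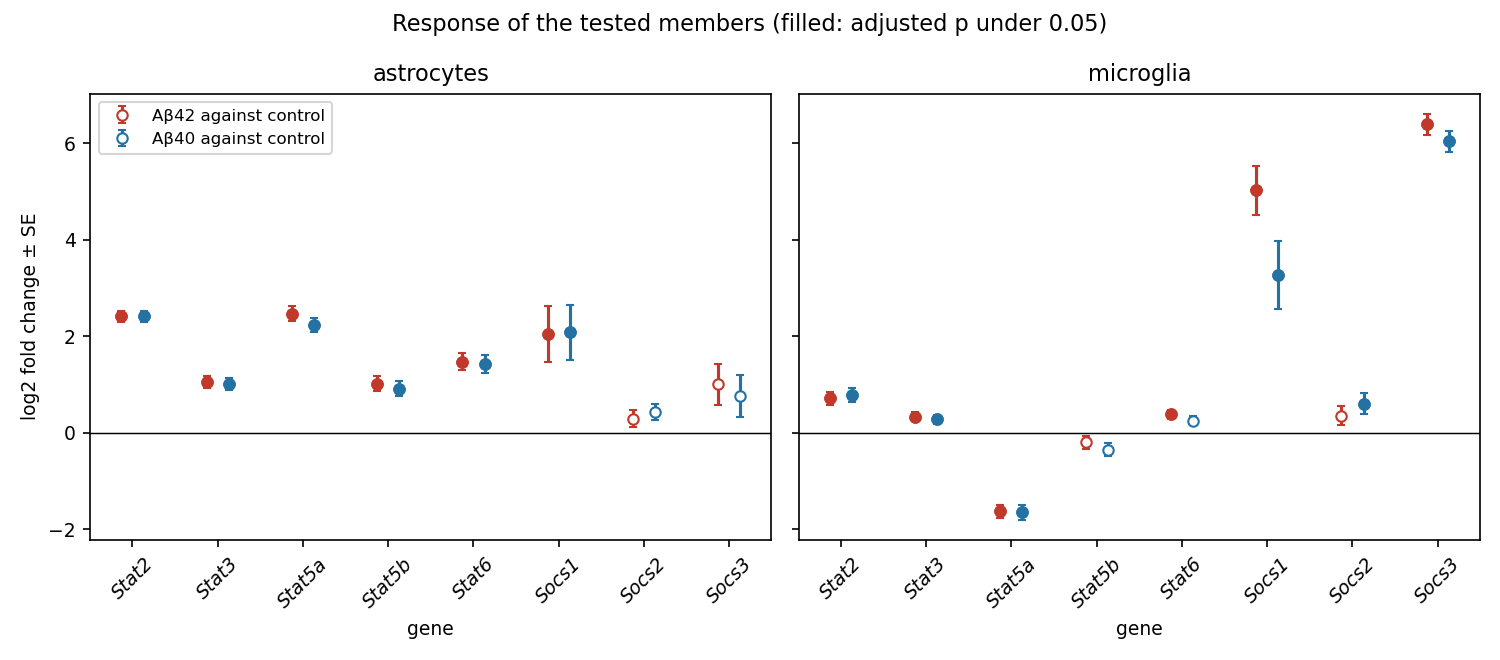
Log2 fold change against control with its SE for the 8 tested members, astrocytes left and microglia right, filled where the adjusted p is under 0.05. Stat5a is above 0 in astrocytes (2.47 and 2.23) and below it in microglia (-1.64 and -1.65), while Socs3 is highest in microglia (6.39 and 6.04).

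Few members were called between the fibrils. In astrocytes 0 of the 8 tested members were called between Aβ42 and Aβ40 by edgeR, 0 at an unadjusted p under 0.05 and 0 by DESeq2, beside 0.0599% of all genes higher and 0.0257% lower with Aβ42. The largest astrocyte values were those of Socs3 (log2 0.24, approximate 95% interval -0.58 to 1.06) and Stat5a (0.24, -0.04 to 0.51). Socs1 had the widest interval, -0.94 to 0.86. Such intervals were taken from the SE by the normal distribution, so with 3 libraries a group they are somewhat too narrow. In microglia 1 member was called, Socs1, higher with Aβ42 than with Aβ40 by 3.38-fold (log2 1.76, SE 0.38, adjusted p = 0.0185). This stands beside 11.3% of all genes higher and 9.01% lower with Aβ42, and 2 members had an unadjusted p under 0.05. Those shares rest on 1 library in each cell type: without microglia Aβ42 replicate 1 they were 27.1% and 26.8%, and in astrocytes without control replicate 2 they were 0.961% and 0.911%. They also rest on the fit: in microglia 2198 genes were called in all, but 752 with the replicate number as a block and 106 with the compared groups alone, and in astrocytes 10, but 0 with that block, 141 by DESeq2 and 265 with the compared groups alone. The Socs1 groups overlapped through Aβ42 replicate 1 (3.998). The fibril groups also differed in depth: the libraries at 14.6 and 16.3 had 22274367 and 17687416 counts on genes, and the other Aβ42 library and all Aβ40 libraries between 2271834 and 4425805, and the part of depth was not tested. Without Aβ42 replicate 1 the log2 value was 1.97 (adjusted p = 2.27e-06). The call was lost without Aβ42 replicate 2 (1.61, adjusted p = 0.0837), Aβ42 replicate 3 (1.48, adjusted p = 0.0991) or any Aβ40 replicate (1.62, 1.66 and 1.93, with adjusted p = 0.0825, 0.0733 and 0.0605). It was also lost with the compared groups alone (1.73, adjusted p = 0.0701).

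Socs3 was the other microglial member with a low unadjusted p. Its level with Aβ42 relative to Aβ40 was 0.35 on the log2 scale (SE 0.15, adjusted p = 0.108). Without Aβ42 replicate 1 it was 0.51 and called (adjusted p = 0.000199), the lowest of 16 alternatives, which reached 0.438.

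The difference between cell types was tested directly, as the astrocyte response minus the microglial response in a fit of all 18 libraries. With Aβ42, 7 members differed, 5 with the higher response in astrocytes and 2 with the lower, beside 17.9% and 19.3% of all 11581 genes tested. With Aβ40, 6 members differed, 5 higher and 1 lower, beside 16.5% and 16% of all genes. The 5 higher were the same genes for both fibrils, namely all measurable STAT genes. Stat5a led, with log2 differences of 4.09 (SE 0.20, adjusted p = 2.83e-11) with Aβ42 and 3.90 (SE 0.21, adjusted p = 1.11e-10) with Aβ40. Stat2 differed by 1.71 and 1.65, Stat5b by 1.22 and 1.27, Stat6 by 1.09 and 1.19, and Stat3 by 0.73 and 0.75, with adjusted p of at most 0.00125 and calls in all 26 alternatives each.

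Socs3 went the other way, and so did Socs1 with Aβ42. Socs3 responded less in astrocytes than in microglia by a log2 difference of -5.40 (SE 0.56, adjusted p = 4.07e-07) with Aβ42 and -5.27 (SE 0.56, adjusted p = 6.58e-07) with Aβ40. Without astrocyte control replicate 3 these values were -4.70 and -4.58, and without both libraries that stood apart the Aβ42 value was -6.01. Socs1 had -2.97 with Aβ42 (SE 1.01, adjusted p = 0.0270) and -1.19 with Aβ40 (SE 1.15, adjusted p = 0.465). With control microglia at or under the floor for Socs1 (3, 2 and 3 counts), the size of both values is uncertain. The Aβ42 call of Socs1 was lost without astrocyte control replicate 3 (-2.26, adjusted p = 0.207), microglia Aβ42 replicate 3 (-2.71, adjusted p = 0.0541) or any microglia control (-2.86, -2.96 and -3.07, with adjusted p = 0.0778, 0.0555 and 0.0580). It was also lost with the replicate number as a block (-2.73, adjusted p = 0.0624). Without both libraries that stood apart the Aβ42 value of Socs1 was -3.58 (adjusted p = 0.000647). Socs2 gave -0.06 and -0.15 with approximate 95% intervals of -0.59 to 0.48 and -0.70 to 0.41, not called.

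**Figure D4:**
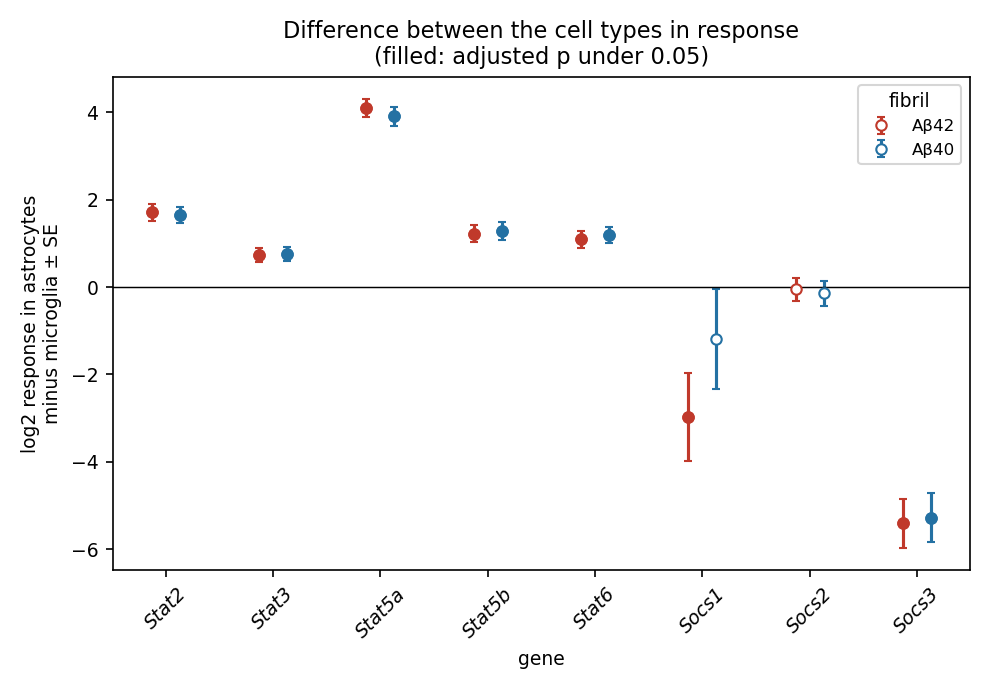
Log2 difference between the responses of astrocytes and microglia (astrocytes minus microglia) with its SE for each tested member and fibril. The 5 STAT genes lie above 0, up to 4.09 for Stat5a, and Socs3 lies at -5.40 and -5.27.

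Untreated cells of the 2 types already differed. Of the 9 members, 3 were higher and 4 lower in control astrocytes than in control microglia, beside 34.5% and 34.2% of all genes tested. Stat6 had the widest gap, 22.0-fold lower in astrocytes (log2 -4.46, SE 0.15, adjusted p = 1.13e-14), and Stat5a (-1.48), Stat5b (-1.31) and Stat2 (-0.87) were lower as well. Socs3 was 10.3-fold higher in astrocytes (log2 3.37, SE 0.44, adjusted p = 1.60e-06), with a log2 value of 2.67 without astrocyte control replicate 3, and Stat3 was 1.75-fold higher (log2 0.81, SE 0.11). The call of Socs1 (log2 2.54, SE 0.92, adjusted p = 0.0204) was lost without astrocyte control replicate 3 (1.82, adjusted p = 0.224) or microglia control replicate 1 (2.43, adjusted p = 0.0673). Socs1 was at or under the floor in control microglia, so the size of this value is uncertain. Cell type and any difference in handling between the cultures cannot be told apart.

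Scaled together over all libraries, mean levels put the groups in a different order for each gene. Stat2 ran from astrocytes with Aβ42 (629.6 ± 18.1, SD, n = 3) and Aβ40 (627 ± 16.9), whose libraries overlapped, through microglia with Aβ40 (365 ± 19.6) and Aβ42 (351 ± 64.7), which also overlapped, to control microglia (213 ± 30.9) and control astrocytes (116 ± 9.91). Control was thus lower in astrocytes and treated levels higher, an exchange of order. Stat5a had the same exchange: the astrocyte groups with Aβ42 (109 ± 13.4) and Aβ40 (92.1 ± 4.73) led, control microglia followed (54.0 ± 2.79), and control astrocytes (19.3 ± 2.33) overlapped treated microglia (18.4 ± 2.99 and 17.0 ± 1.94). For Stat3 all astrocyte groups were above all microglia groups, from 974 ± 34.8 with Aβ42 to 461 ± 63.6 in control astrocytes and 263 ± 12.1 in control microglia.

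For Stat6 all microglia groups were above all astrocyte groups, from 336 ± 35.0 with Aβ42 in microglia to 11.3 ± 2.61 in control astrocytes. Stat5b was highest in control microglia (72.0 ± 3.86) and lowest in control astrocytes (28.7 ± 4.89), and its 4 treated groups, between 55.1 and 63.3, each overlapped the next. Socs3 had its extremes within microglia, 304 ± 79.6 with Aβ42 and 3.60 ± 0.536 in control; the 3 astrocyte groups, 74.6 ± 13.8, 62.9 ± 7.11 and 35.6 ± 24.9, lay between and overlapped in that order. Socs1 ran from microglia with Aβ42 (13.2 ± 7.69) through astrocytes with Aβ40 (11.01 ± 4.61) and Aβ42 (10.8 ± 4.91) to microglia with Aβ40 (4.61 ± 1.27). Each of these treated groups overlapped the next. Control microglia were lowest for Socs1 (0.444 ± 0.0574), with libraries that overlapped control astrocytes. For Socs2 all neighbours overlapped, from 11.1 ± 1.43 to 7.61 ± 0.298.

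The members also differed in how closely they followed each other. Over the 18 libraries, after the mean of each cell type was removed, Pearson's r of log2 levels was 0.98 between Stat3 and Stat6, 0.97 between Stat2 and Stat3 and 0.88 between Stat5a and Stat5b, but -0.35 between Stat5a and Socs3. These libraries share treatment and controls, and r is a description. By the same measure among 11581 genes, those most like each member were Irf7 and Helz2 for Stat2 (r = 0.99 for each), Rcl1 and Hsd11b2 for Stat3 (0.98), Col14a1 and Il6r for Stat5a (0.98 and 0.97), P2ry6 and Narf for Stat5b (0.96), Psmb8 and Nfkbie for Stat6 (0.99), Ier5 and Junb for Socs1 (0.97), Pls1 and Cyp39a1 for Socs2 (0.88 and 0.86), and Mmp14 and Slco4a1 for Socs3 (0.99).

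Counts of the lists around the members stand beside these shares of all genes called higher and lower: 16.5% and 20.4% in astrocytes with Aβ42, 14.9% and 18.4% with Aβ40, and in microglia 27.1% and 26.6% with Aβ42 and 19.6% and 21.4% with Aβ40. The JAK kinases were followed as a list of 4, all tested. In astrocytes 3 rose with Aβ42 and 2 with Aβ40 (median log2 0.52 and 0.53; the median over all genes tested was within 0.01 of 0 in each comparison with control). In microglia 1 rose and 2 fell with Aβ42, and 1 rose and 1 fell with Aβ40. Jak2, the kinase of growth hormone and colony-stimulating factor receptors, stood at 40.9, 62.2 and 52.7 in control astrocytes and at 196 to 240.1 in the treated ones, 4.17- and 4.19-fold higher (adjusted p = 2.99e-06 and 3.28e-06). In microglia Jak2 rose 1.4995- and 1.84-fold. Tyk2, a kinase of interferon receptors, rose in astrocytes by 0.60 and 0.72 on the log2 scale and fell in microglia by 0.95 and 1.19, and its response differed between the cell types by 1.57 and 1.93 (adjusted p = 0.000265 and 4.44e-05). Jak1 rose in astrocytes with Aβ42 (0.43) and fell in microglia with Aβ42 by 0.33, and Jak3 was called in neither cell type.

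Of 5 other SOCS box genes 4 were listed in the tables and tested. Cish, the founding member of the family and a known STAT5 target, had 3.18, 1.74 and 1.07 in control microglia, 40.8, 36.2 and 38.4 with Aβ42 and 39.8, 38.7 and 47.8 with Aβ40. It rose 18.04- and 19.7-fold (adjusted p = 3.97e-08 and 5.01e-08), in the cells in which Stat5a fell. In astrocytes Cish rose 3.07- and 2.16-fold (adjusted p = 0.00164 and 0.0170). Socs5 rose in both cell types, by 1.19 and 0.94 in astrocytes and 0.77 and 0.68 in microglia (log2), Socs6 fell in microglia by 0.97 and 1.19, and Socs4 was not called in either. Among 9 PIAS proteins and phosphatases 2 rose and 2 fell in astrocytes with each fibril; in microglia 1 rose and 4 fell with Aβ42 and 0 rose and 4 fell with Aβ40. By the mean over both fibrils Ptprc, also in the microglial marker list, was lowest in both cell types (log2 -2.53 and -2.95 in astrocytes, -1.73 and -1.19 in microglia). By the same mean Ptpn2 (0.70 and 0.59) was highest in astrocytes and Pias4 (1.23 and 0.02) in microglia.

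Of 22 ligands listed in the tables, 12 had enough counts to be tested in each cell type. A ligand near 0 in control passes that filter only if treated libraries express it, so the counts and medians of rises depend in part on the filter; the same holds for Il12rb1 among the receptor chains in astrocytes and for Ccl22 among the STAT6-associated genes in microglia. Of the 12, 9 rose with Aβ42 and 7 with Aβ40 in astrocytes (median log2 1.36 and 1.43) and 10 with each fibril in microglia (median 5.12 and 4.75), and 0 fell. In microglia Il6 had 2.12, 1.93 and 0.153 in control, 380.3, 253 and 303 with Aβ42 and 339.5, 312 and 413 with Aβ40, a rise of 7.75 and 7.94 on the log2 scale. In astrocytes Csf3 had 1 count over the 3 controls and 1969 and 1333 with Aβ42 and Aβ40, ratios of 1321 (exact 95% counting interval 237 to 52184) and 676 (121 to 26709). Ctf1 was lowest in the list and not called in either cell type. Of 21 receptor chains tested, 10 rose and 4 fell in astrocytes with each fibril, and 8 rose and 9 fell with Aβ42 and 7 and 9 with Aβ40 in microglia. The oncostatin M receptor Osmr rose 10.1- and 16.2-fold in microglia, and Il12rb1 had 3 counts in astrocyte controls and ratios of 54.1 (18.3 to 264) and 55.9 (19.0 to 273). Il21r, the interleukin-21 receptor, was at 0 in all astrocyte libraries with Aβ42, at least 9.58-fold lower against the floor per library, and in microglia its ratios were 116 lower with each fibril (44.5 to 428 and 20.6 to 4594).

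Genes known to follow each STAT were counted as lists. All 11 interferon genes associated with STAT2 rose in astrocytes with each fibril (median log2 4.89 and 4.83), from Irf9, a partner of STAT2 (1.73 and 1.76), to Ifit3 (7.48 and 7.21). In microglia 9 rose with Aβ42 and 10 with Aβ40 (median 1.90 and 1.65), Rsad2 most (3.62 and 3.56), while Ifit2 had -0.26 with Aβ42 (adjusted p = 0.0586) and 0.48 with Aβ40 (adjusted p = 0.00340). All 11 responded more in astrocytes for each fibril when the difference was tested (median log2 difference 1.97 and 1.83), and 10 of them were lower in untreated astrocytes than in untreated microglia (median -1.97), so for those 10 the larger fold started from a lower level. Of 11 genes associated with STAT3, 8 rose and 1 fell with Aβ42 and 9 rose and 1 fell with Aβ40 in astrocytes, and 9 and 7 rose and 0 fell in microglia; Lcn2, an acute-phase protein, was the highest in both cell types (6.598 and 6.25; 5.75 and 5.92) and Myc the lowest (-0.40 and -0.62; -0.23 and -0.11, the last pair not called).

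Genes associated with STAT5 and STAT6 did not move as a block. For STAT5, 3 of 6 tested rose and 2 fell in astrocytes with each fibril, and of 7 tested in microglia 4 rose and 2 fell with Aβ42 and 5 rose and 1 fell with Aβ40. Cish was the highest of them and the growth factor Igf1 the lowest (-5.18 and -5.36 in astrocytes, -6.35 and -5.60 in microglia). For STAT6, 0 of 3 rose and 2 fell in astrocytes and 2 of 5 rose and 2 fell in microglia with each fibril. The mannose receptor Mrc1 was the lowest in both cell types (-3.90 and -4.27; -3.90 and -3.56), and Il4r, the highest in astrocytes, was not called. Ccl22 was the highest in microglia, with 4 counts over the controls and ratios of 165 (64.3 to 607) and 431 (168 to 1584). Ptprc, Il21r, Igf1 and Mrc1 fell in astrocyte libraries together with the microglial marker list given above, and the part of that list in their fall was not tested.

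Counts were repeated without the library that stood apart in each cell type; lists not named here had the same counts as before. In astrocytes without control replicate 2, where 22.1% of all genes were higher and 24.8% lower with Aβ42 and 19.6% and 22.2% with Aβ40, 2 of 3 SOCS genes were called higher with each fibril in place of 1, and the STAT genes had 5 of 5 again. With Aβ42 the changed counts (higher and lower) were 3 and 1 for JAK kinases, 3 and 2 for PIAS proteins and phosphatases, 11 and 6 for receptor chains, 9 and 1 for ligands and 8 and 0 for STAT3-associated genes. With Aβ40 they were 3 and 0 for JAK kinases, 12 and 5 for receptor chains and 7 and 1 for ligands.

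In microglia without Aβ42 replicate 1, 34.6% of all genes were higher and 35.7% lower with Aβ42 and 26.4% and 27.6% with Aβ40. The STAT genes had 3 higher and 1 lower with Aβ42, as before, and 3 and 2 with Aβ40 in place of 2 and 1; the SOCS counts were as before. With Aβ42 the changed counts were 1 and 5 for PIAS proteins and phosphatases, 8 and 10 for receptor chains, 9 and 1 for STAT2-associated and 9 and 1 for STAT3-associated genes. With Aβ40 they were 1 and 2 for JAK kinases, 3 and 1 for other SOCS box genes, 1 and 4 for PIAS proteins and phosphatases, 8 and 9 for receptor chains, 11 and 0 for STAT2-associated, 8 and 0 for STAT3-associated and 5 and 2 for STAT5-associated genes.

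**Figure D5:**
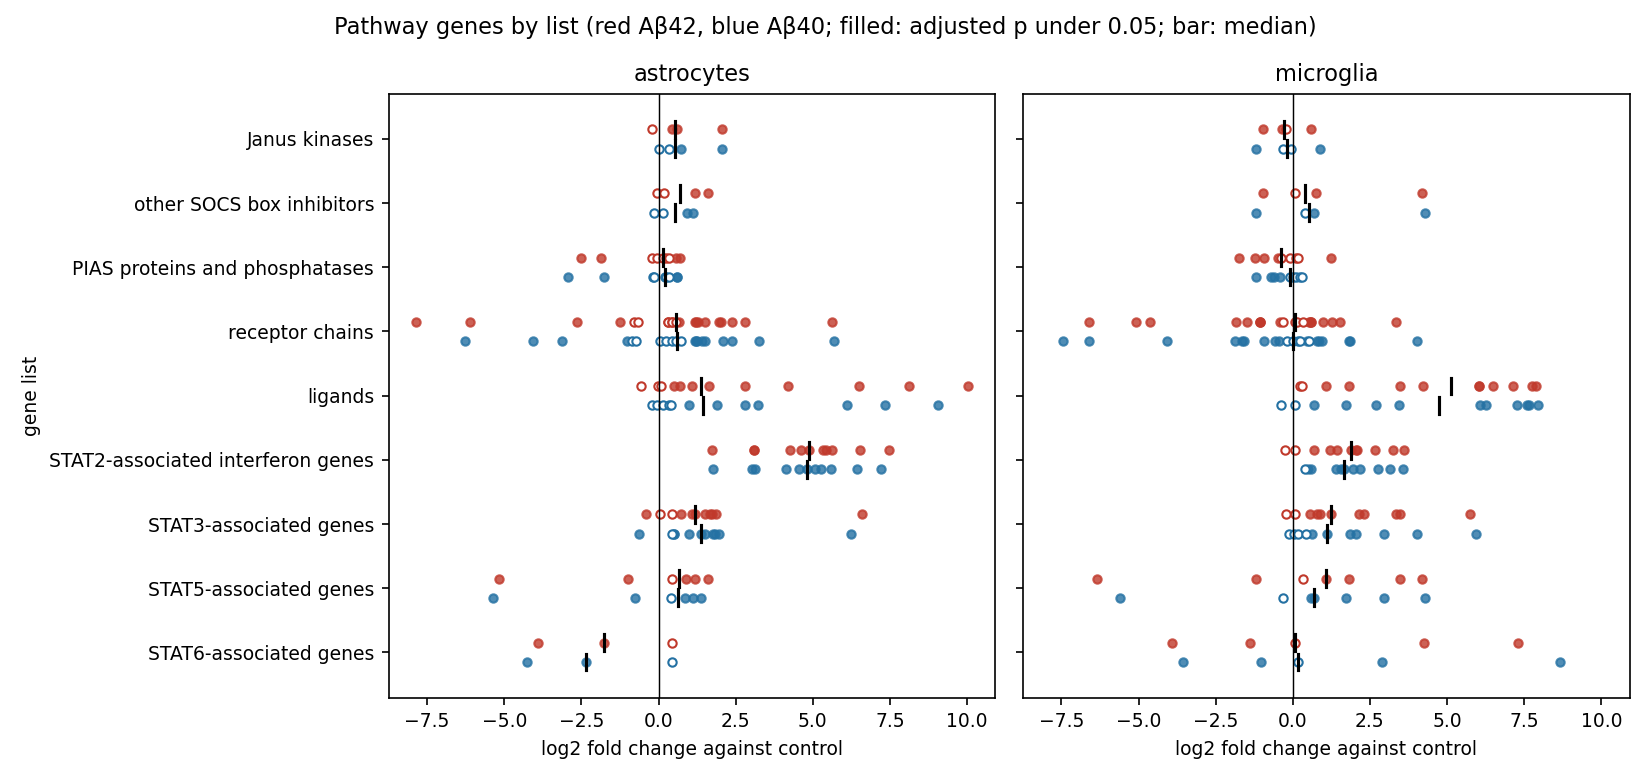
Log2 fold change against control of each tested gene of the pathway lists, by list, cell type and fibril. The 11 interferon genes associated with STAT2 are all above 0 in astrocytes, with medians of 4.89 and 4.83, and are lower in microglia, with medians of 1.90 and 1.65.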

How the data were processed

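The 18 RNA libraries came from astrocytes and microglia, 3 in each of 6 groups, made with a stranded mRNA kit. The deposited tables hold raw read counts per gene symbol; the authors aligned reads to rat build rn5 with STAR and named Salmon and DESeq2, versions not given, and strand and multi-mapped reads were not described. Counts were scaled by TMM and tested in edgeR 4.0.16 (quasi-likelihood, limma 3.58.1, R 4.3.3) after filterByExpr, with Benjamini-Hochberg adjustment over all genes of a fit: 11690 genes in astrocytes, 10837 in microglia and 11581 of 16704 shared symbols in the fit of all 18 libraries, which gave the differences in response and the untreated comparison. Between 26.0% and 34.2% of astrocyte reads and between 21.7% and 24.5% of microglial reads were not assigned to a single gene. Those reads matched no gene or were ambiguous between genes. The tests were tried on simulated data. Of genes given a 2-fold change, 72.5% were called in astrocytes and 88.5% in microglia for Aβ42 against control. The share was 39.3% for the Aβ42 difference in response and 75.4% for the untreated comparison. With an 8-fold change at least 97.5% were called in each. A change of 2-fold or less that was not called may therefore have been missed. Members and lists were chosen with earlier results of these data known. Named genes were all members, tested Janus kinases and other SOCS box genes, and the highest and lowest of each other list in each cell type. Highest and lowest in a list were taken by the mean log2 fold change over both fibrils. Alternatives were DESeq2 1.42.0 scaling and test, library totals, no filter, a strict filter, the replicate number as a block, compared groups alone, and each library left out. Planned protein identities were not computed because no protein table was available.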

Additional observations from a re-analysis of the deposited data

Results flagged for a closer look

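The response to fibrils differed between astrocytes and microglia for 7 members with Aβ42 and 6 with Aβ40, by a test of the difference itself (log2, astrocytes minus microglia). Of all genes tested, 17.9% were higher and 19.3% lower in that test with Aβ42, and 16.5% and 16% with Aβ40. With Aβ42 the values were 1.71 for Stat2, 0.73 for Stat3, 4.09 for Stat5a, 1.22 for Stat5b, 1.09 for Stat6, -2.97 for Socs1 and -5.40 for Socs3. With Aβ40 they were 1.65 for Stat2, 0.75 for Stat3, 3.90 for Stat5a, 1.27 for Stat5b, 1.19 for Stat6 and -5.27 for Socs3. The call of Socs1 was made in 19 of 25 alternatives, with adjusted p from 0.000647 to 0.207. Socs1 was at or under the floor in control microglia (3, 2 and 3 counts), so the size of its difference is uncertain. Within microglia it passed the filter only through treated libraries. Both sets of values rest on the same control libraries. The cause of the differences was not tested.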

How the results depend on the processing

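Of 518 values under alternatives other than leaving out 1 library, 497 kept direction and side of the threshold, 5 reversed, 7 gained a call and 9 lost it; of 864 with 1 library left out, 813 kept both, 16 reversed, 8 gained and 27 lost. Total counts of members called stayed within 1.5 times of the reported count except between Aβ42 and Aβ40 in microglia, where 1 was called: it was 0 with at least 10 counts in every library, a filter that removes Socs1, 0 with the compared groups alone, and 0 to 2 leaving out 1 library (2 without microglia Aβ42 replicate 1). The cause was not tested for the last 2. Split by direction, 5 higher and 1 lower with Aβ40 in microglia ran from 3 to 6 and from 1 to 2, and 2 lower in the Aβ42 difference in response was 1 wherever Socs1 was lost or removed.

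No value that reversed had been called. Stat2 between Aβ42 and Aβ40 in astrocytes, at -0.00, was 0.004342 with DESeq2 size factors, 0.004339 by the DESeq2 Wald test, 0.000884 with no filter, 0.000930 with the replicate block and 0.001466 with the compared groups alone. Leaving out 1 library gave it -0.0280 to 0.0221, Stat6 -0.00902 to 0.123 and Socs1 -0.35 to 0.27. In microglia the same comparison gave -0.162 to 0.0471 for Stat2 and -0.0851 to 0.124 for Stat5a. For Socs2 the difference in response ran from -0.206 to 0.0161 with Aβ42 and from -0.319 to 0.0702 with Aβ40. The cause was not tested.

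Replicate numbers did not pair the groups: for equal numbers r over 0.1 was seen in 2 of 9 group pairs in astrocytes and 1 of 9 in microglia, while 3 astrocyte libraries with other numbers correlated (control replicate 2, Aβ42 replicate 3 and Aβ40 replicate 1); a block of those 3 was not fitted. The replicate block took the call of Socs1 in the Aβ42 difference in response (-2.73, adjusted p = 0.0624; range over 25 alternatives 0.000647 to 0.207). Library totals moved the median of all genes in the untreated comparison to 0.28. Leaving out the 2 libraries that stood apart together, chosen after seeing the data, gave 7, 6 and 7 members called in the 2 differences in response and the untreated comparison, beside 26.7% of all genes higher and 29% lower, 21.7% and 19.5%, and 38.1% and 37.8%. Depth limits Stat4, which has at most 1 count in a library, and Socs1 in control microglia.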
